A study of Mus musculus with 37 samples.

Results

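The Ly6 genes *Ly6a*, *Ly6c1*, *Ly6e*, *Ly6h* and *Lynx1* were followed in hippocampal RNA of 37 mice. All probes carrying these gene symbols were taken, which covers 5 of 15968 named genes and 8 of the 24620 probes on the array: 1 each for *Ly6a*, *Ly6c1* and *Ly6e*, 3 for *Ly6h* and 2 for *Lynx1*. The *Ly6a* probe (target scl47072.5_281-S) has no gene in the platform annotation used here and was named from the probe tables of the study. The mice were females of 3 to 4 months from a CSS15F2 intercross, in which chromosome 15 of the A/J donor segregates on the C57BL/6J host background. RNA came from tissue punches labelled as left hippocampus, and each mouse was measured on its own Illumina MouseRef-8 V1.1 array. The labels divide the 37 mice no further, so each gene was described by its spread over 1 group of mice and by the genes that varied with it. Of a list of 10 markers of hippocampal dentate granule cells, 7 were on the array and 3 of these, *Prox1*, *C1ql2* and *Npnt*, passed the detection limit, on all 37 arrays. Probes of thalamic (7) and choroid plexus (4) markers also passed it. Their brightest, *Slc17a6* and *Ttr*, had an SD of 1.20 and 2.34 in log2 value over mice, and neighbouring tissue in the punches was not tested for.

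Ly6 proteins are small, mostly anchored to the outer cell membrane by a lipid, and share a fold of finger-like loops with snake neurotoxins. *Ly6a* encodes stem cell antigen 1, a marker of blood stem cells that brain endothelium also carries in mice. *Ly6c1* is known from monocytes and from endothelium of the brain, and *Ly6e* is an interferon-induced gene with broad expression. *Ly6h* and *Lynx1* are neuronal genes, and their products bind nicotinic acetylcholine receptors and restrain their surface level or their response.

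All 5 genes lie on chromosome 15, the chromosome that segregates in these mice. In the RefSeq annotation of GRCm38.p6 their order is *Lynx1*, *Ly6e*, *Ly6a*, *Ly6c1*, *Ly6h*. *Ly6a* and *Ly6c1* are neighbours with 0 protein-coding genes between them, 1 separates *Ly6e* from *Ly6a*, 8 separate *Lynx1* from *Ly6e*, and 9 separate *Ly6c1* from *Ly6h*. *Ly6c1* has a close copy, *Ly6c2*, and the study's tables mark the *Ly6c1* probe as covering a base that differs between A/J and C57BL/6J. Probe sequences were not used here, so allele, close copy and transcript level cannot be told apart for this probe.

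Values are log2 of the background corrected and quantile normalized signal, and a probe was called detected on an array with a detection *p*-value under 0.01. Tests covered the 8541 probes found on 19 arrays or more. Between 5281 and 10724 probes were detected per array. On the first principal component of the detected probes, which held 35.5% of the variance, 9 arrays stood apart from the other 28, and this component had r = 0.90 with the number of detected probes. The 9 arrays had 5281 to 8704 detected probes (median 6821), against 7665 to 10724 (median 8980.5) on the other 28, and 8 of the 9 belonged to the set of 26 arrays with the lower BeadChip numbers. On these 9 arrays the mean value of the 25 detected neuronal marker probes was 9.99 to 10.52, against 10.66 to 11.25 on the other 28. The mean of the 3 detected erythroid probes was 9.10 to 10.33 on the 9 arrays and 7.58 to 9.09 on the other 28, without overlap. The mean of the 20 microglial probes had a median of 8.27 on the 9 arrays and 7.85 on the other 28, with overlapping ranges, and that of the 27 endothelial probes lay at 7.81 to 8.16 and 7.71 to 8.26. The marker probes, and the Ly6 probes detected on 19 arrays or more, were among those from which the component was computed. Their values on the 9 arrays and the other 28 are therefore no independent test of the split. In RNA of a whole tissue punch, fewer cells of a type and less RNA per cell cannot be told apart.

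Of the 8 probes, 7 were detected on all 37 arrays. Among the 8 probes that of *Ly6a* varied most. Its lowest value was 7.53, its median 9.70 and its highest 11.85, with a mean of 9.70 ± 0.99 (SD, n = 37 mice). The range corresponds to a 19.9-fold difference between the lowest and the highest mouse, and 96.8% of the tested probes had a smaller SD. *Ly6a* lay between 9.98 and 11.85 on the 9 arrays that stand apart and between 7.53 and 10.26 on the other 28, so that all values above 10.26 came from the 9. The SD over the other 28 was 0.71.

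*Ly6c1* ranged over 8.40 to 10.94 with a median of 9.75 and a mean of 9.73 ± 0.55 (SD, n = 37 mice), a 5.82-fold range. A smaller SD was seen for 70.2% of the tested probes. The values on the 9 arrays (9.68 to 10.94, median 10.50) overlapped those on the other 28 (8.40 to 10.32, median 9.57). *Ly6e* ranged over 10.58 to 12.15 with a median of 11.35 and a mean of 11.43 ± 0.38, a 2.96-fold range, and both sets of arrays overlapped over most of it. None of the probes fell into separate groups of mice in a mixture model of its values.

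The 3 *Ly6h* probes had means of 12.27 ± 0.34, 11.68 ± 0.40 and 10.02 ± 0.44 (SD, n = 37 mice each) and are numbered in this order. The same mice stood at both ends for all 3. Mouse 20 was lowest, with 11.34, 10.87 and 9.23, and mouse 43 was highest, with 13.11, 12.77 and 11.37. Both belong to the 9 arrays that stand apart. They were on the same BeadChip, which held 4 of the 9. Mouse 20 also had the highest *Ly6a* value and mouse 43 the highest *Ly6c1* value of all mice.

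The *Lynx1* probes behaved differently from each other. Probe 1 was detected on all arrays, with a lowest value of 10.76, a median of 11.71, a highest of 12.10 and a mean of 11.66 ± 0.32. It tended to be low on the 9 arrays, at 10.76 to 11.70 (median 11.27), against 11.25 to 12.10 (median 11.81) on the other 28. Probe 2 was detected on 11 arrays, 0 of them among the 9, and its values of 4.64 to 5.89 were near background, so it was left out of the tests below. Where probes detected on at least 1 array were tested, probe 2 rose by 0.16 per 1000 further detected probes (limma adjusted p = 3.7e-04). Of all 13450 probes in that test, 65.5% changed with the number of detected probes.

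**Figure D1:**
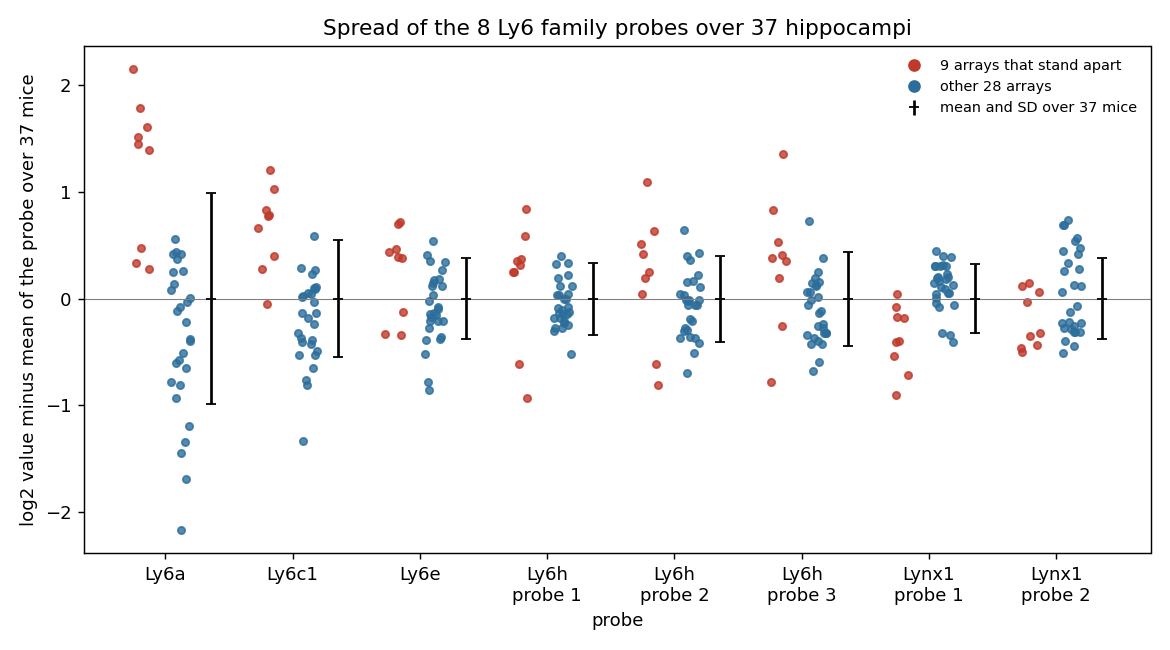
Log2 value of each of the 8 probes minus the mean of that probe over 37 mice, with 1 point per mouse. Red points are the 9 arrays that stand apart, blue points the other 28, and black bars the SD over 37 mice. *Ly6a* has the widest spread (SD 0.99) with the red points at its upper end, and *Lynx1* probe 1 has the red points at its lower end.

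The 3 probes of *Ly6h* varied together. Pearson's r over the 37 mice was 0.92 between probes 1 and 2, 0.84 between probes 1 and 3 and 0.72 between probes 2 and 3. Among the 28 arrays without those that stand apart these were 0.87, 0.69 and 0.43, and among the 9 they were 0.96, 0.95 and 0.93. The *Lynx1* probes had r = 0.07 over the 37 mice, with probe 2 near background. For *Ly6a*, *Ly6c1* and *Ly6e* there was no further probe to compare with.

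The number of detected probes on an array moved with several of the genes. In a limma fit on this number, 67.0% of all 8541 detected probes changed with it at a Benjamini-Hochberg adjusted p under 0.05. *Ly6a* fell by 0.47 per 1000 further detected probes (SE 0.085, r = -0.66, adjusted p = 8e-06), and *Ly6c1* fell by 0.27 (SE 0.047, r = -0.69, adjusted p = 5e-06), although its slope was 0.14 without quantile normalization. *Ly6h* probe 3 fell by 0.11 (SE 0.049, adjusted p = 0.035), and its slope was 0.29 without quantile normalization. *Ly6e* (r = -0.33, adjusted p = 0.064), *Ly6h* probes 1 and 2 (r = -0.12 and -0.09) and *Lynx1* probe 1 (r = 0.35, adjusted p = 0.050) did not pass, but without quantile normalization all 4 had positive slopes that passed (adjusted p from 1.4e-10 to 0.0013), and *Ly6e* also passed in the authors' values, with a slope of -0.13 (adjusted p = 0.0099). The direction for *Ly6a* was the same without quantile normalization, with a slope of -0.09 that did not pass (adjusted p = 0.35). In that setting background corrected log2 values were only centred on the median of each array, and 91.9% of all 8541 probes passed. In the authors' values 66.0% passed. None of the 7 probes passed a test between the 13 BeadChips (limma F test, adjusted p from 0.32 to 0.99; unadjusted p from 0.065 to 0.99), where 0.796% of all probes passed. None passed between the sets of 11 and 26 arrays (adjusted p from 0.52 to 0.97; unadjusted p from 0.058 to 0.90), where 0 of 8541 probes passed and 796 had an unadjusted p under 0.05.

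Relations between the members were examined for all 10 pairs, with the brightest probe of each gene. *Ly6a* and *Ly6e* gave the strongest positive relation, with r = 0.68 and rho = 0.70 (permutation p = 1e-05 for both, the lowest value 100000 permutations allow). The relation was r = 0.65 among the 28 arrays, 0.59 among the 9, 0.66 and 0.85 within the sets of 26 and 11 arrays, and 0.80 after centring on the mean of each BeadChip. The limma adjusted p of *Ly6e* on *Ly6a* was 3.7e-05 over the 37 arrays, 0.038 with the number of detected probes in the fit and 0.48 among the 28 arrays. This value depends on which gene is the predictor, and for *Ly6a* on *Ly6e* it was 0.0058, 0.018 and 0.27. Leaving out the 2 mice farthest from the *Ly6a* median gave r = 0.64. This relation was known when the genes were chosen.

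*Ly6a* and *Ly6c1*, the direct neighbours, had r = 0.48 and rho = 0.44 (permutation p = 0.0025 and 0.0067; limma adjusted p = 0.0044). The relation was -0.02 among the 28 arrays and 0.01 among the 9 that stand apart, and 0.57 and -0.20 within the sets of 26 and 11 arrays. It was 0.06 with the number of detected probes in the fit (adjusted p = 0.86). Both genes followed the component that set the 9 arrays apart (r = -0.74 for *Ly6a* and -0.76 for *Ly6c1*), and the part of this split in the smaller r was not tested. Leaving out the 2 mice farthest from the *Ly6a* median gave r = 0.44. *Ly6c1* and *Ly6e* had r = -0.02 over the 37 mice, -0.34 among the 28 and -0.71 among the 9.

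*Lynx1* ran against *Ly6c1*, with r = -0.66 and rho = -0.62 (permutation p = 2e-05 and 5e-05; limma adjusted p = 9.7e-05). The relation was -0.32 among the 28 arrays (adjusted p = 0.24), -0.49 among the 9, -0.66 and -0.48 within the sets of 26 and 11 arrays and -0.61 with the number of detected probes in the fit (adjusted p = 0.0073), but it was 0.26 without quantile normalization. Leaving out the 2 mice farthest from the *Ly6c1* median gave -0.69. *Lynx1* and *Ly6a* had r = -0.49 (permutation p = 0.0024, adjusted p = 0.0067), which turned to 0.16 among the 28 arrays and to 0.19 within the set of 11, and was -0.51 without the 2 mice farthest from the *Ly6a* median. It did not pass with the BeadChip as a block (r = -0.26, adjusted p = 0.34) or with the number of detected probes in the fit (r = -0.36, adjusted p = 0.18). That of *Ly6a* with *Ly6c1* did not pass with the BeadChip as a block either (r = 0.31, adjusted p = 0.21). The neuronal genes *Ly6h* and *Lynx1* had r = -0.37 (permutation p = 0.023), which did not pass the adjustment over all probes (adjusted p = 0.17) and was 0.49 without quantile normalization. The remaining 4 pairs had r between 0.00 and 0.28 and did not pass either, but without quantile normalization *Ly6c1* and *Ly6h* had r = 0.65, *Ly6e* and *Ly6h* 0.49 and *Ly6e* and *Lynx1* 0.60. *Ly6a* and *Ly6h* had r = 0.19, and r = 0.44 without mice 20 and 100, the ends of the *Ly6a* range (adjusted p = 0.024).

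**Figure D2:**
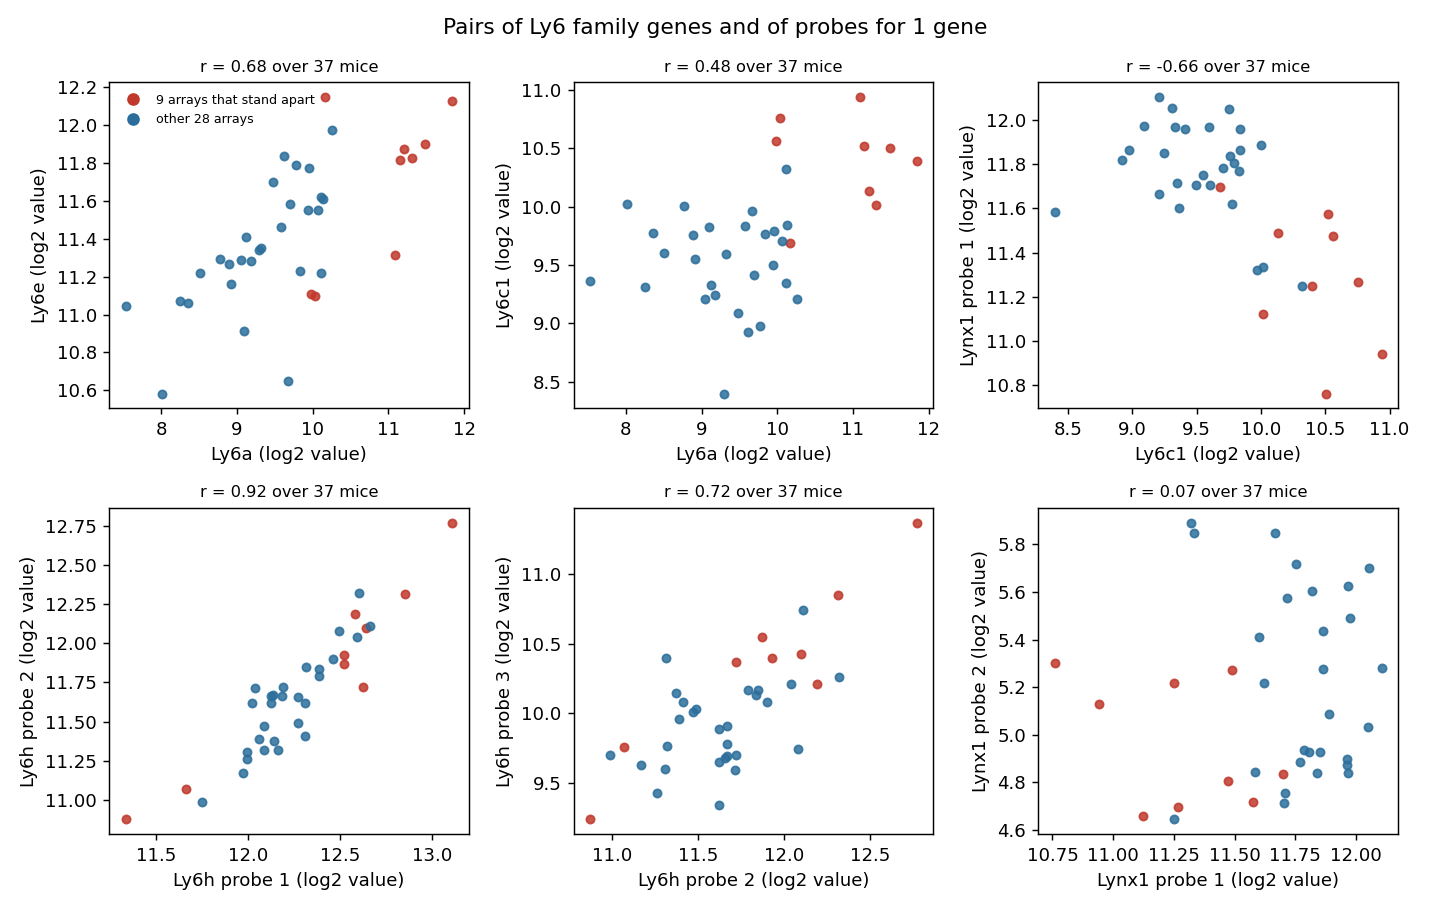
Log2 values of pairs of genes (upper row: *Ly6a* with *Ly6e*, *Ly6a* with *Ly6c1*, *Ly6c1* with *Lynx1*) and of pairs of probes for the same gene (lower row: *Ly6h* probes 1 and 2, *Ly6h* probes 2 and 3, *Lynx1* probes 1 and 2), with 1 point per mouse, red for the 9 arrays that stand apart and blue for the other 28. *Ly6a* and *Ly6e* rise together within both colours, while *Ly6a* and *Ly6c1* do so only across them.

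Every detected probe was then fitted on each gene with limma, to ask which genes varied with it. *Ly6a* was associated with 4832 of 8540 probes (56.6%; 2057 rising with it and 2775 falling), *Ly6c1* with 5041 (59.0%; 2268 and 2773), *Lynx1* with 3948 (46.2%; 2286 and 1662) and *Ly6h* with 453 of 8538 (5.31%; 324 and 129). *Ly6e* was associated with 4 (0.0468%; 3 rising, 0.0351%, and 1 falling, 0.0117%), although 2859 probes had an unadjusted p under 0.05. Without the 9 arrays the counts were 2 for *Ly6a* (0.0234%), 1750 for *Ly6c1* (20.5%), 0 for *Ly6e* (356 at an unadjusted p under 0.05), 7 for *Ly6h* (0.0820%; 0.0234% rising and 0.0586% falling) and 3 for *Lynx1* (0.0351%). A fit with the number of detected probes as a covariate gave 8 for *Ly6a* (0.0937%; 0.0703% rising and 0.0234% falling), 819 for *Ly6c1* (9.59%), 3 for *Ly6e* (0.0351%), 858 for *Ly6h* (10.0%; 6.55% rising and 3.50% falling) and 3392 for *Lynx1* (39.7%). *Ly6c1* had the highest count of the 5 without the 9 arrays, though within the set of 11 arrays it had 0 (559 at an unadjusted p under 0.05). Without quantile normalization the median r over all probes was 0.39 for *Ly6c1*, 0.52 for *Ly6e* and *Ly6h*, 0.75 for *Lynx1* and -0.04 for *Ly6a*, so that nearly all called probes rose together. In that setting 91.9% of the detected probes also changed with the number of detected probes, and the part of this in the values of r was not tested.

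**Figure D3:**
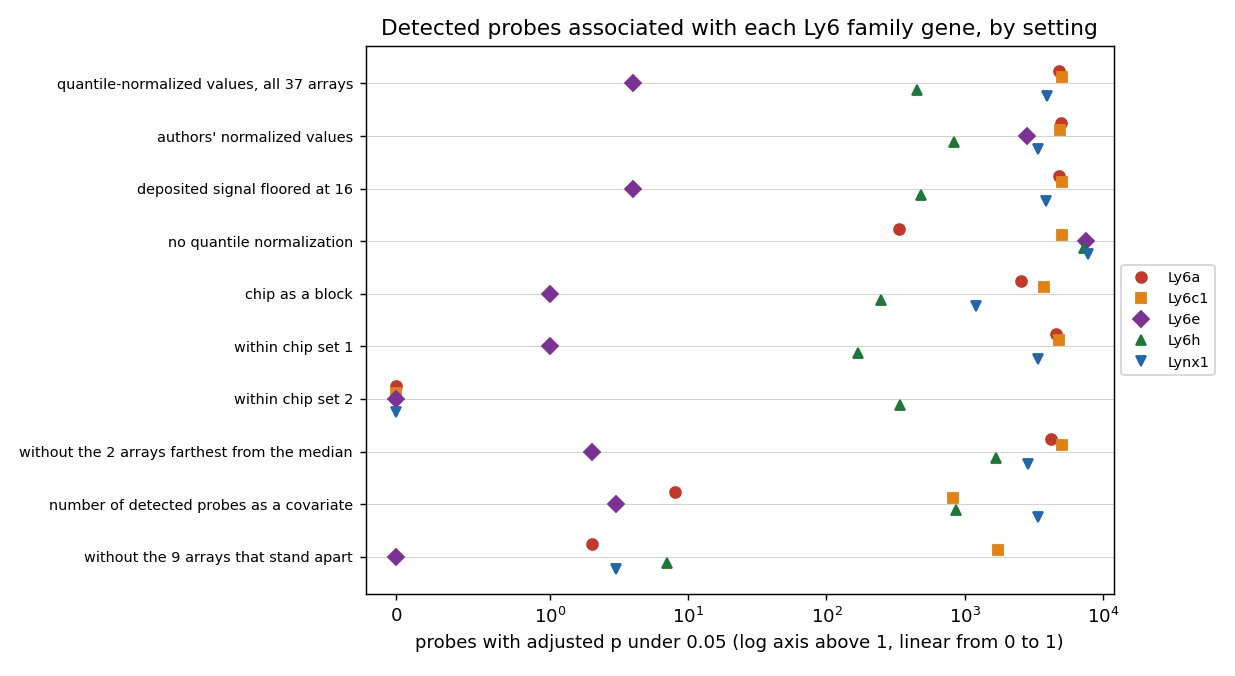
Number of detected probes with an adjusted p under 0.05 in the limma fit on each of the 5 genes, 1 row for each of 10 ways of processing or selecting the arrays, leaving out the wider set of probes detected on at least 1 array. The horizontal axis is logarithmic above 1 and linear below. *Ly6c1* has between 819 and 5083 in the plotted rows except that of the set of 11 arrays (chip set 2), where it has 0, and *Ly6a* has 8 and 2 in the lowest rows.

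Microglial genes rose with *Ly6c1*. Of 20 detected microglial probes, 15 rose with *Ly6c1* and 2 fell, where 26.6% of all probes rose and 32.5% fell, and the median r was 0.63, against -0.09 over all probes. *C1qa* (r = 0.85), *C1qc* (r = 0.79) and *C1qb* (r = 0.60) encode the chains of complement C1q. *Fcer1g* (r = 0.84) is a signalling chain of Fc receptors, and *P2ry13* (r = 0.81) a purinergic receptor. *Cx3cr1* (r = -0.73), the fractalkine receptor, and *Fcgr3* (r = -0.46), an Fc receptor, were the probes that fell, and both were above 0 without quantile normalization (r = 0.18 and 0.42). In that setting 17 microglial probes rose and 0 fell, where 5083 of all 8540 probes rose and 0 fell. Among the other 28 arrays 12 of the 20 rose and 0 fell, where 12.6% and 7.93% of all probes did so, and the median r was 0.54. *C1qc* (r = 0.79), *C1qa* (r = 0.69), *Fcer1g* (r = 0.68) and *P2ry13* (r = 0.63) passed there too, and *Aif1* (r = 0.62) and *Tmem119* (r = 0.58) passed there only. Adjusted for the number of detected probes, 6 rose and 0 fell, where 6.15% and 3.44% of all probes did so. Of 12 probes for blood leukocyte genes 0 were detected on any array. The mean of the microglial probes had r = -0.75 with the number of detected probes, that of the endothelial probes -0.07, that of the erythroid probes -0.89 and that of the neuronal probes 0.80, and the part of these in the counts was not tested.

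Endothelial genes were less uniform. Of 27 detected endothelial probes, 11 rose with *Ly6c1* and 4 fell, where 26.6% of all probes rose and 32.5% fell, with a median r of 0.20. *Ramp2* (r = 0.71), a receptor accessory protein for adrenomedullin, *Slc38a5* (r = 0.68), an amino acid transporter, and *Cldn5* (r = 0.55), the tight junction claudin of the blood-brain barrier, rose with it. The receptor gene *Flt1* (r = -0.68), the phosphatase *Ptprb* (r = -0.63), *Pltp* (r = -0.46) and the adhesion gene *Pecam1* (r = -0.36) fell. Without quantile normalization 22 endothelial probes rose and 0 fell, where 5083 of all 8540 probes rose and 0 fell. Among the other 28 arrays 6 rose and 2 fell, where 12.6% and 7.93% of all probes did so. Those that rose were *Egfl7* by both probes (r = 0.68 and 0.50), the lipid transporter *Mfsd2a* (r = 0.66), *Cldn5* (r = 0.60), *Bsg* (r = 0.56) and *Icam2* (r = 0.51), and *Flt1* (r = -0.48) and *Ptprb* (r = -0.51) fell in quantile normalized values. With the number of detected probes in the fit only *Adgrl4* passed (r = 0.46), and its r was -0.19 without the 9 arrays. Genes of mural cells, which wrap the vessels, gave 6 rising and 0 falling of 8 detected probes (2 and 0 among the 28 arrays), against the same shares of all probes, with *Higd1b* at r = 0.77 and *Cspg4* at r = 0.60. All 3 erythroid probes rose with *Ly6c1*, among them the hemoglobin gene *Hba-a1* (r = 0.82, and r = 0.66 without the 9 arrays).

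Neuronal genes ran the other way in quantile normalized values. Of 25 detected neuronal probes, 19 fell as *Ly6c1* rose and 1 rose, where 32.5% and 26.6% of all probes did so, with a median r of -0.58. Without quantile normalization 0 neuronal probes fell and 10 rose, with a median r of 0.32, where 0 of all 8540 probes fell and 5083 rose. *Nefm*, a neurofilament gene (r = -0.73), 1 of the probes for the synapsin gene *Syn1* (r = -0.73) and *Syn2* (r = -0.72) were lowest, and the tubulin gene *Tubb3* rose (r = 0.71). Among the 28 arrays 5 fell and 1 rose, where 7.93% and 12.6% of all probes did so, with a median r of -0.19.

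For *Ly6a* many probes of the same lists were called over all arrays and none without the 9. Of the microglial probes 13 rose with *Ly6a* and 2 fell, where 24.1% of all probes rose and 32.5% fell. Of the endothelial probes 6 rose and 4 fell, led by *Emcn*, an endothelial sialomucin (r = 0.77), and of the neuronal probes 1 rose and 18 fell, whereas without quantile normalization 0 probes of both lists passed and 3 microglial probes rose. In that setting 335 of all 8540 probes rose with *Ly6a* and 0 fell. Without the 9 arrays 0 probes of any of the 3 lists passed, with 5, 3 and 3 rising and 0, 0 and 1 falling at an unadjusted p under 0.05, and *Emcn* had r = 0.33. With the number of detected probes in the fit 0 of them passed as well, with 5, 3 and 0 rising and 1, 1 and 9 falling at an unadjusted p under 0.05. Of all 8540 probes, 834 without the 9 arrays and 1964 in the latter fit had such a p, in either direction.

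*Ly6e* had 0 called probes in these lists, where 0.0468% of all probes were called. At an unadjusted p under 0.05, 5 microglial, 3 endothelial and 1 neuronal probes rose with it and 3, 1 and 6 fell. Of all 8540 probes 2859 had such a p, in either direction. Of 17 probes of interferon response genes 0 passed (6 rose and 0 fell at an unadjusted p under 0.05), with a median r of -0.02. Of the brightest 4, *Ifitm3* had r = 0.52, *Ifitm1* 0.47, *B2m* 0.22 and *Ifngr2* -0.24. In the authors' normalized values 2838 probes (33.2%) were associated with *Ly6e*, among them 7 of the 20 microglial, 3 of the 27 endothelial and 8 of the 25 neuronal probes, and without quantile normalization 7535 (88.2%), among them 15, 26 and 22.

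*Ly6h* was called with 4 of the 20 microglial probes, all rising, where 3.79% of all probes rose: *C1qc* (r = 0.61), *C1qb* (r = 0.60), *Tmem119* (r = 0.55) and *Trem2* (r = 0.48). It was also called with the endothelial probe of *Cldn5* (r = 0.52) and 1 of the 2 of *Egfl7* (r = 0.68), the other having r = 0.47 (adjusted p = 0.081). Of the 25 neuronal probes 1, for *Syn1* (r = -0.60), was called, and it fell, where 1.51% of all probes fell, against r = 0.39 without quantile normalization. Without the 9 arrays 0 probes of these lists passed, with 9 microglial, 3 endothelial and 0 neuronal probes rising and 1, 1 and 7 falling at an unadjusted p under 0.05. Of all 8538 probes 1897 had such a p there, in either direction. Without mice 20 and 43, the ends of the *Ly6h* range, the count over all probes was 1686, against 453 with them.

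Neuronal genes rose with *Lynx1*. Of the 25 neuronal probes 18 rose with it and 0 fell (25 and 0 without quantile normalization), where 26.8% of all probes rose and 19.5% fell, with a median r of 0.51. *Syn1* (r = 0.81 and 0.64 for its 2 probes) and *Syp*, the synaptic vesicle gene for synaptophysin (r = 0.68), were highest. Of the microglial probes 2 rose and 11 fell, with *Gpr34* lowest (r = -0.72), and of the endothelial probes 7 rose and 6 fell, whereas without quantile normalization 13 and 26 rose and 0 fell. In that setting 7650 of all 8540 probes rose with *Lynx1* and 91 fell. Adjusted for the number of detected probes, 16 neuronal probes rose and 0 fell, where 22.3% and 17.4% of all probes did so. The BeadChip as a block left 3 neuronal probes that rose and 4 microglial probes that fell, where 9.23% of all probes rose and 4.95% fell. Without the 9 arrays 0 passed, with 5 rising and 1 falling at an unadjusted p under 0.05, and *Syn1* had r = 0.57 and 0.19 and *Syp* r = 0.56. Of all 8540 probes 1451 had such a p there, in either direction. Of 7 detected probes for nicotinic receptors and cholinergic genes, the system on which *Lynx1* acts, 2 rose and 2 fell. *Ache*, encoding acetylcholinesterase, had r = 0.40, and the receptor chaperone genes *Ric3* and *Tmem35a* had r = -0.59 and -0.54 (0.66 and 0.37 without quantile normalization).

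**Figure D4:**
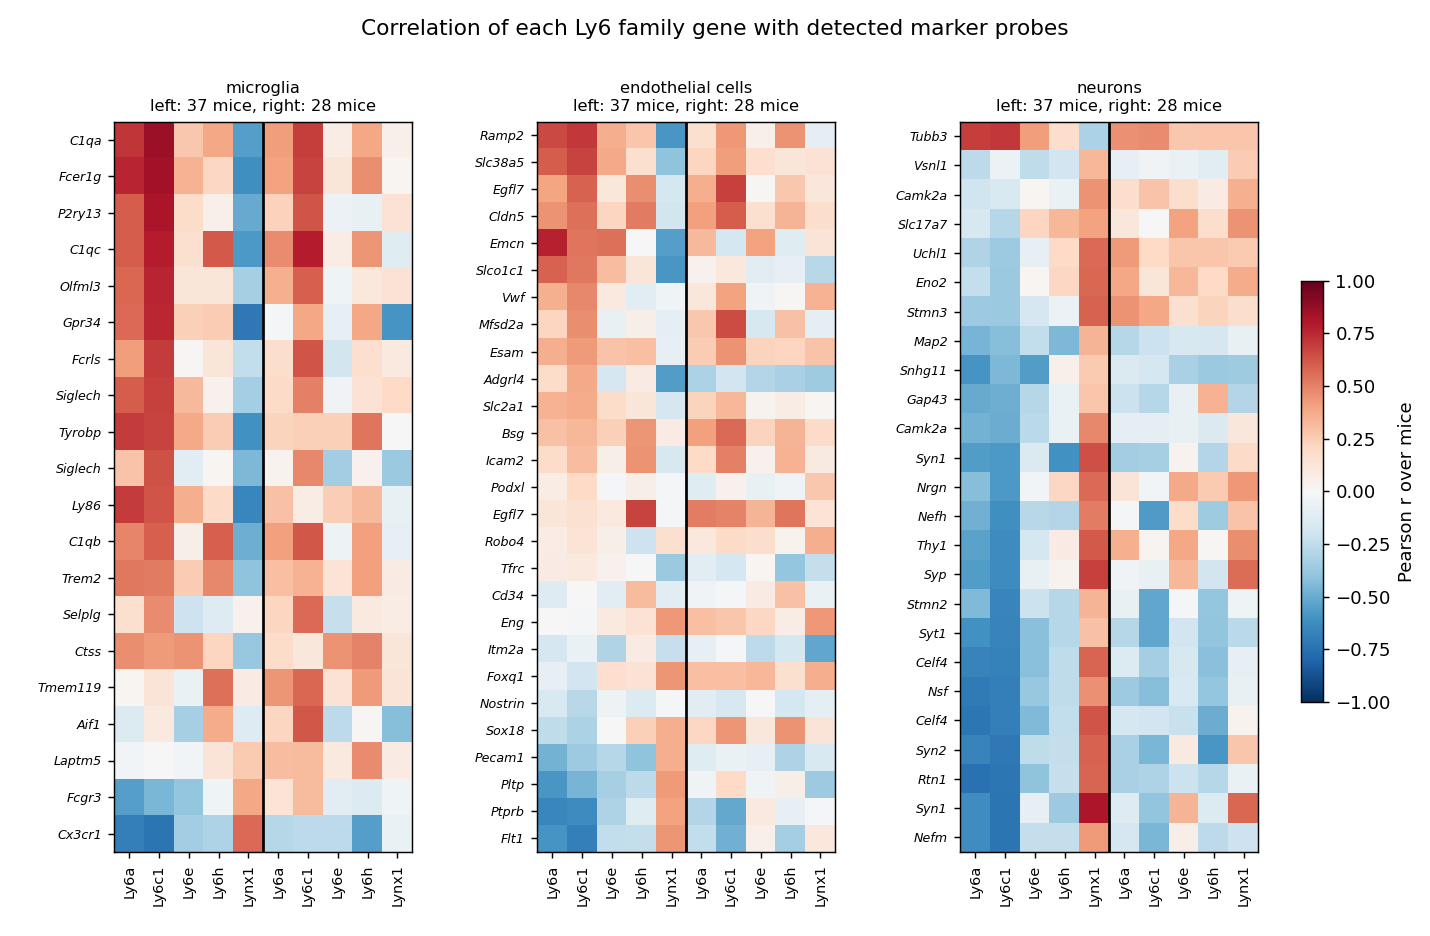
Pearson's r of each of the 5 genes with the detected probes of microglial (20), endothelial (27) and neuronal (25) marker genes, 1 row per probe, ordered by r with *Ly6c1*. In each panel the left block is over all 37 mice and the right block over the 28 mice without the arrays that stand apart. The microglial block stays red for *Ly6c1* on the right, while the columns of *Ly6a* and *Lynx1* pale.

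Beyond the lists, the probes of other genes with the highest and lowest r were taken for each gene. For *Ly6c1*, *Ly6h* and *Lynx1*, the lowest were above 0 without quantile normalization in 5 of 5, 5 of 5 and 4 of 5 cases, and the highest kept their sign. All of the lowest of *Ly6e* were above 0 there too, at r from 0.12 to 0.51. Of all probes, 5083 rose with *Ly6c1* in that setting, 7529 with *Ly6e*, 7271 with *Ly6h* and 7650 with *Lynx1*. Those that fell were 0, 6, 5 and 91. For *Ly6c1* the highest were *Smdt1*, a subunit of the mitochondrial calcium uniporter encoded on chromosome 15 (r = 0.90), *Lage3* (r = 0.89), *Svbp*, which encodes the partner of the vasohibins (r = 0.88), *Ramp1*, a receptor accessory protein for calcitonin gene-related peptide (r = 0.88), and *Tmem223* (r = 0.87). The lowest named probes were *Susd6* (r = -0.82), *Fam155a* (r = -0.82), the neuronal splicing factor *Rbfox1* (r = -0.81) and *Mfn2*, which fuses mitochondria (r = -0.81). All 10 of its closest probes passed with the number of detected probes in the fit and without the 9 arrays, where r was 0.77 for *Smdt1* and -0.69 for *Susd6*.

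For *Ly6a* they were *Scrg1* (r = 0.81), the cold-inducible RNA-binding gene *Cirbp* (r = 0.80) and *Id1*, an inhibitor of helix-loop-helix factors (r = 0.80), and at the other end *Sirpa*, a receptor for CD47 (r = -0.82), *Arhgap44* (r = -0.79), the helicase gene *Ddx51* (r = -0.79) and the splicing factor gene *Sf3b2* (r = -0.79). Without quantile normalization these 4 had r between -0.20 and -0.27 and did not pass (adjusted p from 0.66 to 0.79). The probes of *Tmbim4*, *Galnt2* and *Tomm22* also ranked here but fell into separate groups of mice, so no r over all mice is given. *Tomm22*, a receptor of the mitochondrial import pore, lay between 4.98 and 6.64 in 11 mice and between 9.01 and 11.24 in 26. *Ly6a* averaged 8.70 ± 0.68 in those 11 mice and 10.12 ± 0.77 in the 26, and *Ly6e* 11.10 ± 0.21 and 11.58 ± 0.34 (SD). The study's tables mark the *Tomm22* probe as covering a base that differs between the strains. Of the 10 probes closest to *Ly6a*, 5 passed with the number of detected probes in the fit and 1, that of *Tomm22*, without the 9 arrays.

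Of the few probes called for *Ly6e*, and for *Ly6a* under the restrictions, several lay on chromosome 15, which held 333 of the 8540 probes (3.90%). They were singled out after their values were seen. The 4 called for *Ly6e* were *Ly6a*, *Tomm22* and *Mpped1* on chromosome 15, and *Lrrc61* on chromosome 6. *Mpped1* fell (r = -0.66), with r = 0.26 without quantile normalization, and the other 3 rose. The *Lrrc61* probe was detected on 20 arrays, with a mean of 5.84. A second *Lrrc61* probe lay at 6.81 to 8.05 in 35 mice, with r = 0.17 with *Ly6e* among them. It lay at 4.76 to 5.64 in 2 mice, in which *Ly6e* averaged 11.97, against 11.40 in the 35. In the fit with the number of detected probes, 8 were called for *Ly6a*, of which *Tomm22*, *Mgat3*, *Ly6e* and, falling, *Lrrc24* lie on chromosome 15, and the 3 called for *Ly6e* were *Mgat3*, *Ly6a* and *Tomm22*. The 2 called for *Ly6a* without the 9 arrays were *Tomm22* and *Mgat3*. The *Mgat3* probe is marked like that of *Tomm22*. Over all 37 arrays, 51.4% of the chromosome 15 probes and 56.6% of all probes were called for *Ly6a*. These shares were 55.9% and 59.0% for *Ly6c1*, 44.4% and 46.2% for *Lynx1*, 6.34% and 5.31% for *Ly6h* and 0.901% and 0.0468% for *Ly6e*. Chromosome and probe marking are given beside these counts, and their part in them was not tested.

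For *Ly6h* the closest named probes were *Tmem121* (r = 0.82), the ubiquitin-conjugating gene *Cdc34* (r = 0.80), *Nat14* (r = 0.79) and *Scand1* (r = 0.79), and at the other end *Pitpnb* (r = -0.71), a phosphatidylinositol transfer protein gene, *Arhgef11* (r = -0.68), *Rasd2* (r = -0.67), the kinesin gene *Kif3c* (r = -0.67) and *Ntrk3*, the receptor for neurotrophin-3 (r = -0.66). For *Lynx1* they were the inositol kinase gene *Itpk1* (r = 0.89), *Flot1* (r = 0.89), *Rangap1* (r = 0.87), *Dtnb* (r = 0.86) and *Cplx1*, which encodes a complexin of synaptic release (r = 0.85). *Cldn10* (r = -0.82), *Tspan6* (r = -0.81) and *Mrps33* (r = -0.80) were the lowest named. All 10 probes of *Ly6h* and of *Lynx1* passed with the number of detected probes in the fit, and 0 of either passed without the 9 arrays, where *Itpk1* had r = 0.72 and *Flot1* r = 0.70 with *Lynx1*.

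Of the wider Ly6 and uPAR domain family, 32 probes were on the array and 5 were detected on at least 19 arrays. *Lypd1*, encoding a further binder of nicotinic receptors, was detected on 37 arrays with a mean of 9.49 ± 0.30, *Cd59a*, which protects cells from complement, on 37 with 7.83 ± 0.59, *Lypd6b* on 34 with 6.41 ± 0.40, *Lypd6* on 32 with 6.56 ± 0.70 and *Cd59b* on 28 with 6.13 ± 0.998 (SD, n = 37 mice). *Lypd6b* rose with *Ly6h* (r = 0.52), and r was 0.01 without the 9 arrays. Of the 10 other family genes on chromosome 15, looked up after the values were seen, *Psca* was detected on 18 arrays, *Gpihbp1*, which carries lipoprotein lipase across capillary endothelium, on 11 and 3 by its 2 probes, *Lypd2* on 9 and *Ly6k* on 5, while *Ly6d*, *Ly6f*, *Ly6i*, *Ly6m*, *Slurp1* and *Slurp2* were detected on 0.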

How the data were processed

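The authors read the bead intensity in BeadStudio, subtracted background and deposited it on a linear scale with no normalization between arrays. The deposited detection score is 1 minus the detection *p*-value against negative control beads. A second deposited table holds log2 values that the authors obtained with lumi (variance stabilization, then robust spline normalization), used as an alternative. Here nec in limma 3.58.1 (R 4.3.3) inferred background from the detection *p*-values, with an offset of 16, before quantile normalization over the 37 arrays. Of 24620 probes, 20985 had 1 gene symbol, 1 several and 3634 none, and the tables were joined for 24613 probes by their ranks on each array. Probes detected on at least 19 arrays were fitted with lmFit and eBayes on the brightest probe of each gene, with Benjamini-Hochberg adjustment over all of them. With the number of detected probes in the fit, r is a partial correlation. Permutation tests were two-sided. Separate groups of mice were assumed where a mixture of up to 3 components lowered the Bayesian information criterion by over 10. The fit was tested on simulated data in which the noise of each probe was independent, so that test does not cover variation shared by probes between arrays. Alternatives were the authors' values, a signal floor, no quantile normalization, detection on at least 1 array, BeadChip, chip set and number of detected probes, and left-out arrays. Without quantile normalization, the median over all probes of an array was subtracted from its background corrected log2 values. Named genes are all member probes, for each member the 5 highest and 5 lowest correlated probes, detected endothelial, microglial and neuronal probes, and up to 4 of the brightest probes of each other list. Members and lists were chosen with earlier results of these data known. Precision is set by the number of mice and, for dim probes, by background. P-values measure the spread between mice with 1 array each, so differences between mice and between arrays cannot be told apart in them.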

Additional observations from a re-analysis of the deposited data

How the results depend on the processing

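Of 200 counts of associated probes under the alternatives, 113 stayed within 1.5 times the value for all 37 arrays and 87 did not. This rule took no account of direction, and some of the 113 changed it without quantile normalization. The *Ly6c1* count went from 2268 rising and 2773 falling to 5083 and 0. The microglial count of *Lynx1* went from 2 rising and 11 falling to 13 and 0. A signal floor of 16 and detection on at least 1 array moved none. In the counts below, values for all probes come first and those for endothelial, microglial and neuronal probes follow; the cause of each change was not tested. In the authors' normalized values, *Ly6e* had 2838, 3, 7 and 8, *Ly6h* 843 with 4 endothelial and 3 neuronal probes, and *Lynx1* 5 endothelial probes. Without quantile normalization, *Ly6a* had 335, 0, 3 and 0, *Ly6c1* 10 neuronal probes, *Ly6e* 7535, 26, 15 and 22, *Ly6h* 7276, 25, 15 and 22, and *Lynx1* 7741 with 26 endothelial probes. With the BeadChip as a block, *Ly6a* had 2537 with 6 endothelial and 11 neuronal probes, *Ly6e* 1, *Ly6h* 249 with 1 endothelial probe, and *Lynx1* 1211, 1, 4 and 3. With the number of detected probes as a covariate, *Ly6a* had 8, 0, 0 and 0, *Ly6c1* 819, 1, 6 and 1, *Ly6h* 858 with 2 neuronal probes, and *Lynx1* 8 endothelial and 8 microglial probes. Within the 26 arrays of the lower chip numbers, *Ly6e* had 1, *Ly6h* 169 with 1 endothelial and 0 neuronal probes, and *Lynx1* 7 endothelial probes. Within the other 11, *Ly6a*, *Ly6c1* and *Lynx1* had 0, 0, 0 and 0 (270, 559 and 761 of all probes at an unadjusted p under 0.05 in limma), *Ly6e* 0 (1251 unadjusted) and *Ly6h* 0 endothelial probes. Without the 2 arrays farthest from the median of the gene, *Ly6e* had 2, *Ly6h* 1686, 4, 8 and 6, and *Lynx1* 7 endothelial and 7 microglial probes. Without the 9 arrays that stand apart, an alternative chosen after seeing the data, *Ly6a* had 2, 0, 0 and 0, *Ly6c1* 1750 with 8 endothelial and 6 neuronal probes, *Ly6e* 0 (356 unadjusted), *Ly6h* 7, 0, 0 and 0, and *Lynx1* 3, 0, 0 and 0. Of 184 values for single genes and pairs, 140 kept direction and side of the threshold, 12 no longer passed, 7 newly passed and 25 changed sign. Of these 25, 12 were r of *Ly6e* with *Ly6c1*, *Ly6h* or *Lynx1*, between -0.02 and 0.00 over all 37 arrays, that passed in neither setting and were 0.02 to 0.65 in the other. The other 13 were r of *Ly6a* with *Ly6c1* within the 11 arrays (-0.20) and without the 9 (-0.0175), *Ly6a* with *Lynx1* in the same (0.19 and 0.16) and, without quantile normalization, *Ly6c1* with *Lynx1* (0.26), *Ly6e* with *Ly6h* (0.49), *Ly6e* with *Lynx1* (0.60) and *Ly6h* with *Lynx1* (0.49), and the slopes on 1000 detected probes of *Ly6h* (0.23, 0.28 and 0.29), *Ly6e* (0.20) and *Ly6c1* (0.14). The 12 that no longer passed were *Ly6a* with *Ly6c1* and with *Lynx1* (each without quantile normalization, with the BeadChip and with the number of detected probes), *Ly6a* with *Ly6e* and *Ly6c1* with *Lynx1* (each within the 11 arrays and without the 9), the slope of *Ly6a* without quantile normalization and that of *Ly6h* probe 3 in the authors' values. No paired analysis was possible because all mice form 1 group. Signal over background limits *Lynx1* probe 2, at -0.7 to 83.3 in deposited signal.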
